A study of Homo sapiens with 6 samples.

Results

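The genes described here are ATF4 and 9 genes known as its targets in stress signalling and in the synthesis of amino acids: ATF3, DDIT3, TRIB3, CHAC1, STC2, ASNS, PHGDH, PSAT1 and MTHFD2. They were chosen by symbol, and all 10 were listed among the 12829 genes of the table. The 6 RNA-seq libraries came from HaCaT, a line of immortal, aneuploid keratinocytes from human skin that is much used in place of epidermis. There were 3 libraries of cells with a short hairpin RNA against IQGAP2, whose genotype is given as IQGAP2 knockdown, and 3 of normal control cells, whose genotype is given as WT. Both groups grew in DMEM with fetal bovine serum, and no drug or starvation is named for either. The labels do not say how many hairpins were used, whether the knockdown cells were a clone or a pool, or whether the control cells carried a hairpin that targets nothing. IQGAP2 encodes a scaffold protein that binds calmodulin and actin, and the title of the series links its loss to proliferation through mTOR. The comparison of knockdown with control therefore shows whether transcripts of the ATF4 response, which mTOR complex 1 is known to raise, differ when IQGAP2 is reduced.

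ATF4 is a basic leucine zipper transcription factor. When a kinase phosphorylates the translation factor eIF2, most translation slows while that of the ATF4 mRNA rises, because short reading frames ahead of its coding sequence then no longer capture the ribosome. ATF4 can thus become more active with little change of its own transcript. The kinases answer endoplasmic reticulum stress, lack of amino acids, double-stranded RNA and lack of heme, and mTOR complex 1 raises ATF4 in growing cells by a further route. The protein pairs with members of the C/EBP family and binds composite C/EBP-ATF elements of genes that import amino acids, charge tRNAs, make serine, asparagine and mitochondrial folate units, or report stress.

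The promoters of the genes whose window holds such an element, and of TRIB3, the gene with the largest change, are shown so that the letters can be read beside the expression values. The sequences are RefSeq's, build GRCh38.p14, from 250 bases before to 50 bases after an annotated start, written 5′ to 3′ on the strand of the gene. Capitals mark a match to TGATGNAAN on either strand. There were 2 such windows for ASNS, 2 for ATF3, 3 for TRIB3 and 1 for CHAC1. Shown is the first window that holds a match or, for TRIB3, where none does, the first listed. The windows lie at chr7:97872359-97872658, minus strand, for ASNS, at chr15:40953221-40953520, plus strand, for CHAC1, at chr1:212565157-212565456, plus strand, for ATF3, and at chr20:381045-381344, plus strand, for TRIB3.
ASNS: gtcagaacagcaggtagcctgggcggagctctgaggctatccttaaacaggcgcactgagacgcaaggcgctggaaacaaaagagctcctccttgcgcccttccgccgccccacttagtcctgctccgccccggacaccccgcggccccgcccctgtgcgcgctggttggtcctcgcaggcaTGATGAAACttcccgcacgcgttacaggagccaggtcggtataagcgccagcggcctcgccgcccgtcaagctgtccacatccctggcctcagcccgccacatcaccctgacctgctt
CHAC1: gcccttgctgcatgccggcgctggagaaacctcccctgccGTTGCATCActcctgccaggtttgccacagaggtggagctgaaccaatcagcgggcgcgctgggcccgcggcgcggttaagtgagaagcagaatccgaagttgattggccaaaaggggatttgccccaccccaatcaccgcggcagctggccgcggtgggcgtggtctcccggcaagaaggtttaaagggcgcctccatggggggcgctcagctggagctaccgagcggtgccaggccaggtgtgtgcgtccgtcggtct
ATF3: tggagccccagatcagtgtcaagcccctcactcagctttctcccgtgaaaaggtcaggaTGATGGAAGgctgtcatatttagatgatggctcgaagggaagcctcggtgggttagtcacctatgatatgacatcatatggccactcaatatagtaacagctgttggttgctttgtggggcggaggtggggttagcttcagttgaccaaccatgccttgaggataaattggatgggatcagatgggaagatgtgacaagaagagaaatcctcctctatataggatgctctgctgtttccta
TRIB3: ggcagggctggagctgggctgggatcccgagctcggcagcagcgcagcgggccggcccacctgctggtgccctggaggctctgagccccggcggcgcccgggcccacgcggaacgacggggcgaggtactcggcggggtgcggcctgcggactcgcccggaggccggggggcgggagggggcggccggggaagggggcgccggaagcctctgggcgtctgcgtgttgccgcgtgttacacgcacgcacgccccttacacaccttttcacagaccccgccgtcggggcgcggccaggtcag
In ASNS the match TGATGAAAC began 68 bases upstream of the start of the window shown. In ATF3 the match TGATGGAAG began 191 bases upstream of that start. In CHAC1 the match lay on the opposite strand, where it reads TGATGCAAC, and its letters began 210 bases upstream. All 10 genes had at least 1 window, and 3 of them held the motif, against 1268 of 35116 windows of all genes (3.61%) and 243 of 9111 tested genes with a window (2.67%). The cAMP response element TGACGTCA, searched on both strands, was in 0 of the 10, against 3.93% of the tested genes with a window. A match is a description of letters and not of binding, and elements outside these windows were not searched.

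Levels were deposited as FPKM, fragments per kilobase of gene, scaled to the fragments of the library. The whole reads behind them, 12901037 to 15360759 per library in the knockdown and 13957447 to 15122470 in the control group, were recovered from the steps between values. IQGAP2 held 2, 4 and 2 reads in knockdown replicates 1, 2 and 3 and 24, 22 and 21 reads in control replicates 1, 2 and 3. Corrected for depth, 12.2% of the control level was left (exact 95% interval 5.07% to 25.5%, counting error only). All 8 keratinocyte markers were listed, with a summed level of 5239 to 5815 FPKM in knockdown libraries and 5226 to 5313 FPKM in control libraries. Of these 8 markers 6 were called higher in limma and 0 lower, beside 29.5% higher over all genes, and their part in the results below was not tested. Of the fibroblast, melanocyte, leukocyte and endothelial markers, 8 of 21 were listed, and no list summed to more than 1.91 FPKM in a knockdown library or 3.79 FPKM in a control library. LUM, a fibroblast marker, fell to 0.268 ± 0.134 FPKM in knockdown libraries, against 2.21 ± 0.346 FPKM in control libraries (SD, n = 3 each; limma adjusted p = 6.40e-06), and its part in the results below was not tested. The labels name biological replicates but no separate cultures, so the p-values reflect only how far these libraries differ, which may be technical. Changes are log2 differences of FPKM + 1, knockdown minus control. limma gave the adjusted p-values, over the 11214 genes that averaged 0.5 FPKM or more, with a threshold of 0.05. For single genes the exact two-sided permutation test of 3 libraries against 3 cannot go below p = 0.1.

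In the knockdown 7 of the 9 tested genes were higher in limma, 0 were lower (0 also at an unadjusted p of 0.05 and with voom on recovered reads), and ATF4 and PHGDH did not pass. ASNS lay below the filter and was not tested there. Of all genes tested, 29.5% were called higher and 27.8% lower, so many genes outside the set moved too. Higher genes made up 51.5% of the calls as deposited and 72.6% once each library was rescaled to a common sum. The median change of the 9 genes was 0.34, beside 0.01 for all genes tested. For the 7 called genes every knockdown library lay above every control library, which held for 33.7% of all genes tested. Their changes ran from 0.23 for CHAC1 to 1.36 for TRIB3.

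**Figure D1:**
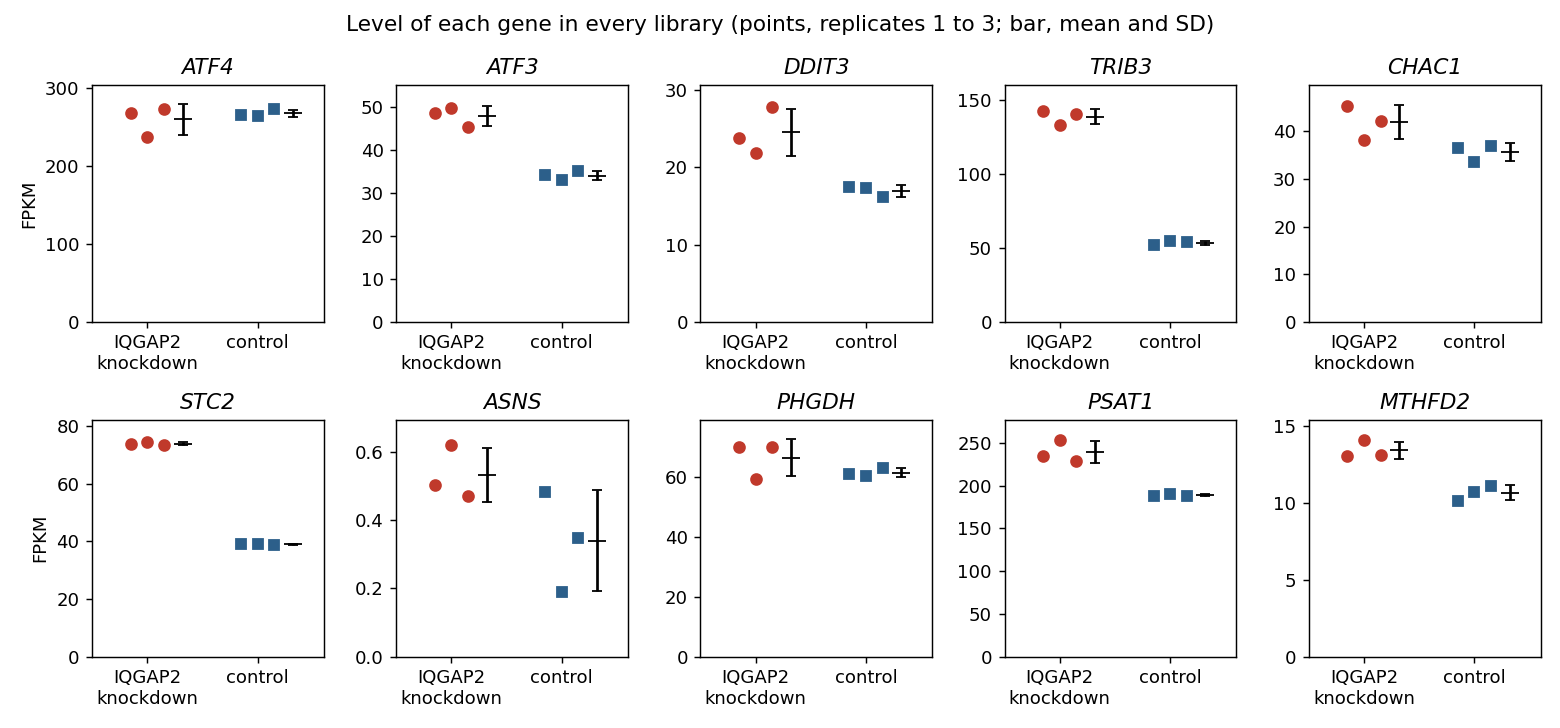
Level of each gene in FPKM (vertical axes, each starting at 0) in the 3 IQGAP2 knockdown libraries (red circles) and the 3 control libraries (blue squares), with the mean and SD as a black bar. The groups are apart for TRIB3, STC2, ATF3, DDIT3, PSAT1, MTHFD2 and CHAC1 and overlap for ATF4, PHGDH and ASNS.

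ATF4 itself (ENSG00000128272; GRCh38 chromosome 22, 39519695 to 39522685, plus strand) had the highest mean FPKM of the 10 genes. Its level was 269, 238 and 274 FPKM in knockdown replicates 1, 2 and 3, against 265, 265 and 273 FPKM in control replicates 1, 2 and 3. Knockdown replicate 2 was the lowest of the 6 libraries, and the other knockdown libraries lay within or just above the control range. The mean was 260 ± 19.5 FPKM in knockdown libraries and 268 ± 4.55 FPKM in control libraries (SD, n = 3 each). The log2 change of -0.04 had a 95% interval of -0.18 to 0.09 (adjusted p = 0.548). Its sign turned with the scaling, as given with the processing below. The transcript says nothing of the protein, whose amount is set largely by translation.

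TRIB3 (ENSG00000101255; chromosome 20, 362835 to 397559, plus strand) encodes a pseudokinase that is induced by ATF4 with DDIT3 and restrains both ATF4 activity and AKT. TRIB3 was at 143, 133 and 140 FPKM in knockdown replicates 1, 2 and 3, against 51.8, 54.5 and 54.0 FPKM in control replicates 1, 2 and 3. The lowest knockdown library was thus well above the highest control library. The means of 139 ± 4.98 FPKM in knockdown libraries and 53.4 ± 1.40 FPKM in control libraries (SD, n = 3 each) differed by 2.60-fold. The log2 change of 1.36 (SE 0.046, adjusted p = 3.63e-08) was the 36th highest of all genes tested. The exact permutation p was 0.1.

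ATF3 and DDIT3 are basic leucine zipper factors downstream of ATF4, ATF3 being a stress-induced repressor and DDIT3, also known as CHOP, a factor of prolonged endoplasmic reticulum stress. ATF3 (ENSG00000162772; chromosome 1, 212565334 to 212620777, plus strand) was at 48.7, 49.7 and 45.3 FPKM in knockdown replicates 1, 2 and 3, against 34.2, 33.0 and 35.0 FPKM in control replicates 1, 2 and 3. Its groups were apart by more than the spread within either (log2 change 0.48, SE 0.050, adjusted p = 3.61e-05). DDIT3 (ENSG00000175197; chromosome 12, 57516588 to 57521737, minus strand) was at 23.8, 21.8 and 27.8 FPKM in knockdown replicates 1, 2 and 3, against 17.5, 17.3 and 16.1 FPKM in control replicates 1, 2 and 3. The knockdown libraries of DDIT3 varied most among the called genes, with an SD of 12.3% of the mean, and still lay above all controls (log2 change 0.50, SE 0.079, adjusted p = 4.33e-04). In GENCODE 29, 31.6% of the exonic bases of DDIT3 are shared with genes of the opposite strand, among them MARS1. On the same strand 8.03% are shared. Whether counting used strand, and how shared reads were counted, is not given in the sources used here. MARS1 was higher too, at 49.3 ± 1.17 FPKM in knockdown libraries and 34.9 ± 0.192 FPKM in control libraries (adjusted p = 1.13e-05), and its part in the DDIT3 value was not tested.

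CHAC1 and STC2 act at the ends of the stress programme. CHAC1 (ENSG00000128965; chromosome 15, 40952962 to 40956519, plus strand) encodes an enzyme that degrades glutathione. CHAC1 was at 45.4, 38.2 and 42.1 FPKM in knockdown replicates 1, 2 and 3, against 36.5, 33.5 and 36.9 FPKM in control replicates 1, 2 and 3. Its groups came closest of the called genes, and the log2 change was 0.23 (SE 0.066, adjusted p = 0.0140). The call was lost without control replicate 2, the lowest library (log2 change 0.18, adjusted p = 0.0641, with a range over all settings of 1.87e-04 to 0.0641). STC2 (ENSG00000113739; chromosome 5, 173314713 to 173329503, minus strand) encodes stanniocalcin-2, a secreted glycoprotein. STC2 was at 73.9, 74.3 and 73.5 FPKM in knockdown replicates 1, 2 and 3, against 39.1, 39.1 and 38.7 FPKM in control replicates 1, 2 and 3. It was the most even of the 10 genes, with an SD of 0.516% of the mean in knockdown libraries and 0.611% in control libraries. The STC2 means differed by 1.90-fold (log2 change 0.91, SE 0.040, adjusted p = 1.74e-07).

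PHGDH and PSAT1 catalyse the opening steps of serine synthesis from a glycolytic intermediate. PHGDH (ENSG00000092621; chromosome 1, 119648411 to 119744226, plus strand) was at 69.9, 59.3 and 70.1 FPKM in knockdown replicates 1, 2 and 3, against 60.9, 60.3 and 63.0 FPKM in control replicates 1, 2 and 3. Knockdown replicates 1 and 3 lay above all controls and knockdown replicate 2 below them. The log2 change of 0.11 had a 95% interval of -0.04 to 0.25 (adjusted p = 0.180). With knockdown replicate 2 left out PHGDH was called higher (0.19, adjusted p = 9.94e-04), and it had a change of -0.01 with the trend over gene length removed (adjusted p = 0.944, the highest over all settings). PSAT1 (ENSG00000135069; chromosome 9, 78297143 to 78330093, plus strand) was at 235, 253 and 229 FPKM in knockdown replicates 1, 2 and 3, against 188, 190 and 188 FPKM in control replicates 1, 2 and 3. The PSAT1 groups were apart, the controls agreeing within an SD of 0.665% of the mean (log2 change 0.34, SE 0.050, adjusted p = 3.18e-04).

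MTHFD2 (ENSG00000065911; chromosome 2, 74198562 to 74217565, plus strand) encodes a mitochondrial enzyme of folate metabolism that uses the units released when serine is turned into glycine. MTHFD2 was at 13.0, 14.1 and 13.1 FPKM in knockdown replicates 1, 2 and 3, against 10.1, 10.7 and 11.1 FPKM in control replicates 1, 2 and 3. All knockdown libraries lay above all controls (log2 change 0.31, SE 0.057, adjusted p = 0.00117). The reads and FPKM imply a gene length of 11443 bases, against 4870 exonic bases in GENCODE 29, and the same reads spread over a longer gene give a lower FPKM. With the length trend removed the change was 0.17 (adjusted p = 0.0203). In GENCODE 29, 33.2% of its exonic bases lie opposite exons of SLC4A5 or AC006030.1.

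ASNS (ENSG00000070669; chromosome 7, 97852118 to 97872542, minus strand) encodes asparagine synthetase, a classical ATF4 target. ASNS was at 0.503, 0.620 and 0.469 FPKM in knockdown replicates 1, 2 and 3, against 0.482, 0.188 and 0.348 FPKM in control replicates 1, 2 and 3. The groups overlapped at control replicate 1. These values rest on 32, 47 and 32 reads in knockdown libraries and 36, 13 and 24 reads in control replicates 1, 2 and 3. The depth-corrected ratio of the summed reads was 1.56 (exact 95% interval 1.15 to 2.12, counting error only), while the libraries spread more widely than that (exact permutation p = 0.2). Without a filter limma gave a log2 change of 0.20 (adjusted p = 0.0895), and with voom on the recovered reads 0.72 (adjusted p = 0.0796). In GENCODE 29, 44.6% of the exonic bases of ASNS are shared with AC079781.5, a gene on the same strand. How reads common to both were counted is not given in the sources used here, so the level of ASNS is uncertain.

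**Figure D2:**
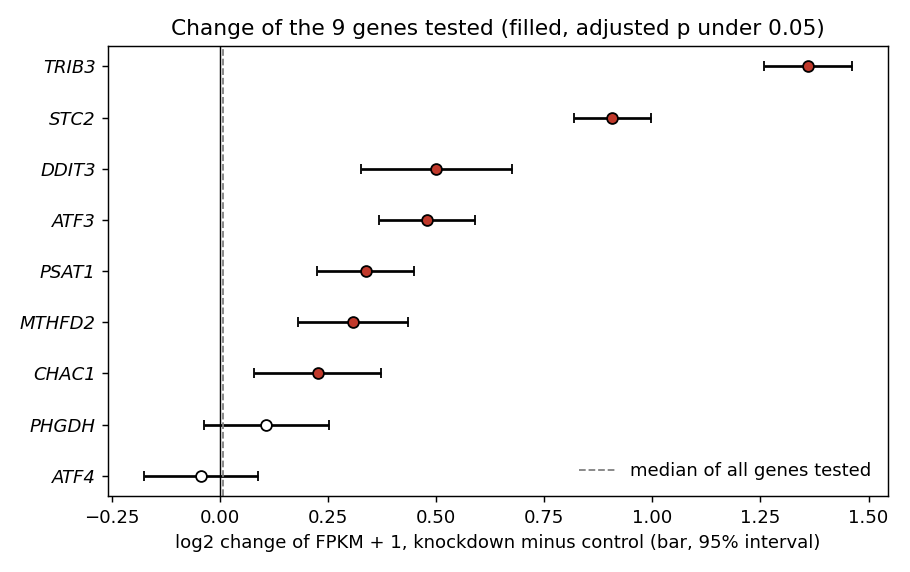
Log2 change of FPKM + 1, knockdown minus control (horizontal axis), for the 9 genes tested, with 95% intervals from limma; filled points passed an adjusted p of 0.05. TRIB3 at 1.36 and STC2 at 0.91 stand to the right, and the intervals of PHGDH and ATF4 include 0.

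Because FPKM are divided by gene length, levels can be set in order across genes within a group, as far as the lengths used hold. In knockdown libraries the order was ATF4, PSAT1, TRIB3, STC2, PHGDH, ATF3, CHAC1, DDIT3, MTHFD2 and ASNS. In control libraries it was ATF4, PSAT1, PHGDH, TRIB3, STC2, CHAC1, ATF3, DDIT3, MTHFD2 and ASNS. The ranges of ATF4 and PSAT1 overlapped in the knockdown, at 238 to 274 FPKM and 229 to 253 FPKM, and did not in the control, at 265 to 273 FPKM and 188 to 190 FPKM. The ranges of ATF3 and CHAC1 overlapped in both groups. Within each knockdown library ATF3 lay above CHAC1, and within each control library it lay below CHAC1. TRIB3 and STC2 both lay above PHGDH in the knockdown and below it in the control group. With the exonic length of GENCODE 29 in place of the implied one, parts of this order change. MTHFD2 would then average 31.5 FPKM in knockdown libraries and 24.98 FPKM in control libraries, above DDIT3 in both groups. STC2 would average 61.0 FPKM in knockdown libraries, below PHGDH at 66.2 FPKM. For PSAT1 the reads imply 1103 bases, against 2188 exonic bases in GENCODE 29. Its reads may have been recovered short by a divisor common to all 6 libraries, which cannot be seen. No level at the GENCODE 29 length is therefore given for PSAT1. The places of MTHFD2 and STC2 are therefore uncertain, and that of PSAT1 could not be checked in this way. TRIB3 keeps its place relative to PHGDH in both groups. A length common to all libraries does not alter the ratio of the groups for a gene.

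A ratio of 2 genes within a library does not depend on how the library was scaled, although it still depends on gene length effects. Relative to ATF4 in the same library, 8 of the 9 other genes were higher in every knockdown library than in any control library, against 33.8% of all genes tested. TRIB3 stood at 53.1%, 55.9% and 51.2% of the ATF4 level in knockdown replicates 1, 2 and 3, against 19.5%, 20.6% and 19.8% in control replicates 1, 2 and 3. For STC2 the mean was 28.5% ± 2.37 in knockdown libraries and 14.5% ± 0.333 in control libraries (SD, n = 3 each). PHGDH was at 26.0%, 24.9% and 25.6% in knockdown replicates 1, 2 and 3, against 23.0%, 22.8% and 23.1% in control replicates 1, 2 and 3. On this scale the groups of PHGDH did not overlap, and knockdown replicate 2 was the lowest knockdown library in both PHGDH and ATF4. The log2 change of PHGDH less that of ATF4 was 0.15, but -0.01 with quantile normalization and -0.08 with the length trend removed, so its direction is not settled. PSAT1 stood at 87.3%, 106% and 83.5% of the ATF4 level in knockdown replicates 1, 2 and 3, and at most 71.8% in a control library. ATF4 was lowest in knockdown replicate 2. The gene length used for PSAT1 in the deposited values is not known, and its percent of the ATF4 level depends on that length. The exact permutation p was 0.1 for each of the 8 genes and 0.2 for ASNS.

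**Figure D3:**
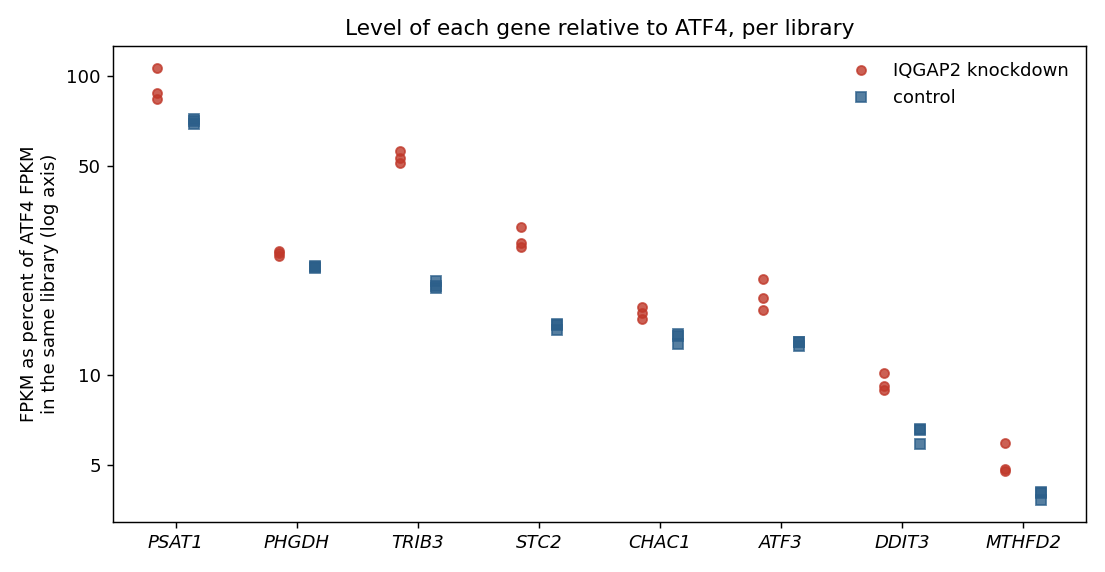
FPKM of 8 genes as a percent of the ATF4 FPKM in the same library (vertical log axis), in knockdown (red circles) and control libraries (blue squares); ASNS is left out as its level is below 1 FPKM. The knockdown points lie above the control points for each gene, by most for TRIB3, at 51.2% to 55.9% against 19.5% to 20.6%.

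Knockdown replicate 2 often lay at one end of its group. Of the 9 tested genes it was the lowest knockdown library for 5 (ATF4, DDIT3, TRIB3, CHAC1 and PHGDH) and the highest for 4 (ATF3, STC2, PSAT1 and MTHFD2). How often this library lay at an end over all genes was not counted. Without knockdown replicate 2 the same 7 genes and PHGDH were called higher. Of all 11214 genes tested, 3250 were then higher and 3212 lower. ATF4 then had a log2 change of 0.02 (adjusted p = 0.566).

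Among related genes, transporters of amino acids and tRNA synthetases had the highest shares called higher, 75% and 83.3%, beside 29.5% of all genes. Of 8 transporters 6 were higher in limma and 0 lower (median change 0.38, beside 0.01 for all genes tested), with 0 lower at an unadjusted p of 0.05 or with voom. SLC38A2, a sodium-coupled importer of neutral amino acids, was at 213 ± 23.6 FPKM in knockdown libraries and 73.2 ± 1.35 FPKM in control libraries (log2 change 1.52, adjusted p = 2.04e-07). SLC7A11, the cystine importer, was at 16.3 ± 2.25 FPKM in knockdown libraries and 7.80 ± 0.426 FPKM in control libraries. The cationic amino acid transporter SLC7A1 and the glycine transporter SLC6A9 rose by log2 changes of 0.58 and 0.40. Of 12 tRNA synthetases known as ATF4 targets 10 were higher in limma and 0 lower (median 0.29), and again 0 were lower at an unadjusted p of 0.05 or with voom. WARS1, which also answers interferon, had the largest change, at 178 ± 6.93 FPKM in knockdown libraries and 101 ± 1.74 FPKM in control libraries (log2 change 0.82, adjusted p = 7.85e-07). LARS1, MARS1 and SARS1 rose by 0.65, 0.49 and 0.44 on the same scale.

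Of 14 other stress targets tested 8 (57.1%, beside 29.5% of all genes) were higher in limma and 0 lower (beside 27.8%; median 0.20), with 1, GDF15, lower at an unadjusted p of 0.05 and 0 lower with voom. GDF15, a secreted stress cytokine, was at 12.5 ± 1.46 FPKM in knockdown libraries and 14.8 ± 1.58 FPKM in control libraries (adjusted p = 0.0566). SESN2, a sensor that restrains mTOR complex 1, was at 28.96 ± 0.684 FPKM in knockdown libraries and 15.2 ± 0.409 FPKM in control libraries (log2 change 0.89, adjusted p = 4.80e-07). The tRNA exporter XPOT was at 65.6 ± 3.67 FPKM in knockdown libraries and 35.9 ± 1.15 FPKM in control libraries (log2 change 0.85, adjusted p = 1.28e-06). PPP1R15A, which brings the phosphatase that reverses eIF2 phosphorylation, was at 122 ± 5.66 FPKM in knockdown libraries and 70.2 ± 1.04 FPKM in control libraries (log2 change 0.79, adjusted p = 1.09e-06). PCK2, the mitochondrial phosphoenolpyruvate carboxykinase, had a log2 change of 0.52. DDIT4, another restraint on mTOR complex 1, did not pass, at 651 ± 10.6 FPKM in knockdown libraries and 689 ± 16.3 FPKM in control libraries (adjusted p = 0.207).

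The other enzymes of serine and folate metabolism were called in both directions, as were all genes. Of 6 such enzymes tested, ALDH1L1 and ALDH1L2 being not analysed here, 1 was higher and 2 lower (median 0.08). These are 16.7% and 33.3%, beside 29.5% and 27.8% of all genes. With so few enzymes, the members named next are single values and not a result about the list. MTHFD1L, the mitochondrial synthetase that releases formate, was at 27.7 ± 0.877 FPKM in knockdown libraries and 22.8 ± 0.442 FPKM in control libraries (log2 change 0.27, adjusted p = 7.33e-04). The cytosolic enzymes MTHFD1 and SHMT1 were lower, by -0.25 (adjusted p = 0.00623) and -0.16 (adjusted p = 0.0343). With each library rescaled to a common sum MTHFD1 and SHMT1 did not pass (adjusted p = 0.261 and 0.902, the highest over all settings). SHMT1 lost the call without any single library but knockdown replicate 2. PSPH, the last enzyme of serine synthesis, was at 17.6 ± 0.957 FPKM in knockdown libraries and 16.0 ± 0.386 FPKM in control libraries (adjusted p = 0.0605).

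Upstream of ATF4, the 15 kinases, eIF2B subunits and regulators had 5 higher and 2 lower members (median 0.02). The 33.3% higher was close to the 29.5% of all genes, so the members named next are single values and not a result about the list. EIF2AK2, the kinase PKR that senses double-stranded RNA and is itself induced by interferon, was at 25.2 ± 3.04 FPKM in knockdown libraries and 16.0 ± 0.592 FPKM in control libraries (log2 change 0.62, adjusted p = 9.42e-05). EIF2AK1, the heme-regulated kinase HRI, was lower, at 23.2 ± 1.26 FPKM in knockdown libraries and 29.9 ± 0.594 FPKM in control libraries (log2 change -0.35, adjusted p = 2.65e-04). DELE1, which relays mitochondrial stress to that kinase, changed by 0.25 and IMPACT, an inhibitor of the amino acid sensing kinase, by 0.48. EIF2AK3, the kinase PERK, passed in the comparison of all libraries (log2 change 0.24, adjusted p = 0.0283) but had a change of 0.04 with the length trend removed (adjusted p = 0.690), and lost the call without knockdown replicate 2, control replicate 1 or control replicate 2. At about 1 FPKM its change depends on the pseudocount, at 0.45 with one of 0.1 and 0.50 with voom (adjusted p = 0.00196). EIF2S1, the eIF2 subunit that is phosphorylated, changed by 0.14 and EIF2B5 by -0.21, and the EIF2S1 call was lost without knockdown replicate 3 or any control library or with no mean-variance trend (adjusted p = 0.0562). The EIF2B5 call was lost with a common sum (adjusted p = 0.469, the highest over all settings). EIF2AK4, the kinase GCN2, did not pass, at 7.67 ± 0.612 FPKM in knockdown libraries and 7.47 ± 0.172 FPKM in control libraries (adjusted p = 0.711).

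Among basic leucine zipper genes that pair with ATF4 or are related to it, 5 of 10 tested were higher and 2 lower (median 0.16), or 50% and 20%, beside 29.5% and 27.8% of all genes. CEBPG, a C/EBP partner of ATF4, was at 34.9 ± 1.47 FPKM in knockdown libraries and 19.2 ± 0.860 FPKM in control libraries (log2 change 0.83, adjusted p = 1.58e-06). CEBPD fell to 20.0 ± 1.21 FPKM in knockdown, against 45.9 ± 2.39 FPKM in control libraries (log2 change -1.16, adjusted p = 3.54e-07), and JUN to 91.7 ± 2.44 FPKM, against 148 ± 3.50 FPKM in control libraries (log2 change -0.68). ATF2, ATF1, ATF5 and JDP2 rose by 0.39, 0.34, 0.34 and 0.21, though JDP2 did not pass without knockdown replicate 1 or control replicate 3 or with the length trend removed (adjusted p = 0.0553). CEBPB was at 62.1 ± 5.53 FPKM in knockdown libraries and 59.5 ± 3.33 FPKM in control libraries (adjusted p = 0.470, not called).

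The ATF6 and XBP1 arms of the unfolded protein response had 7 of 12 genes higher and 3 lower (median 0.31), or 58.3% and 25%, beside 29.5% and 27.8% of all genes. SEL1L and DNAJC3, of endoplasmic reticulum degradation and of eIF2 kinase inhibition, rose by 0.91 and 0.82, and the transcription factor gene XBP1 by 0.70. The chaperone gene HSPA5 was at 272 ± 7.26 FPKM in knockdown libraries and 188 ± 1.28 FPKM in control libraries (log2 change 0.53, adjusted p = 9.35e-06). The folding genes CALR, PDIA4 and HSP90B1 were the 3 lower members, with log2 changes of -0.81, -0.51 and -0.21, though HSP90B1 did not pass with a common sum (adjusted p = 0.352, the highest over all settings).

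**Figure D4:**
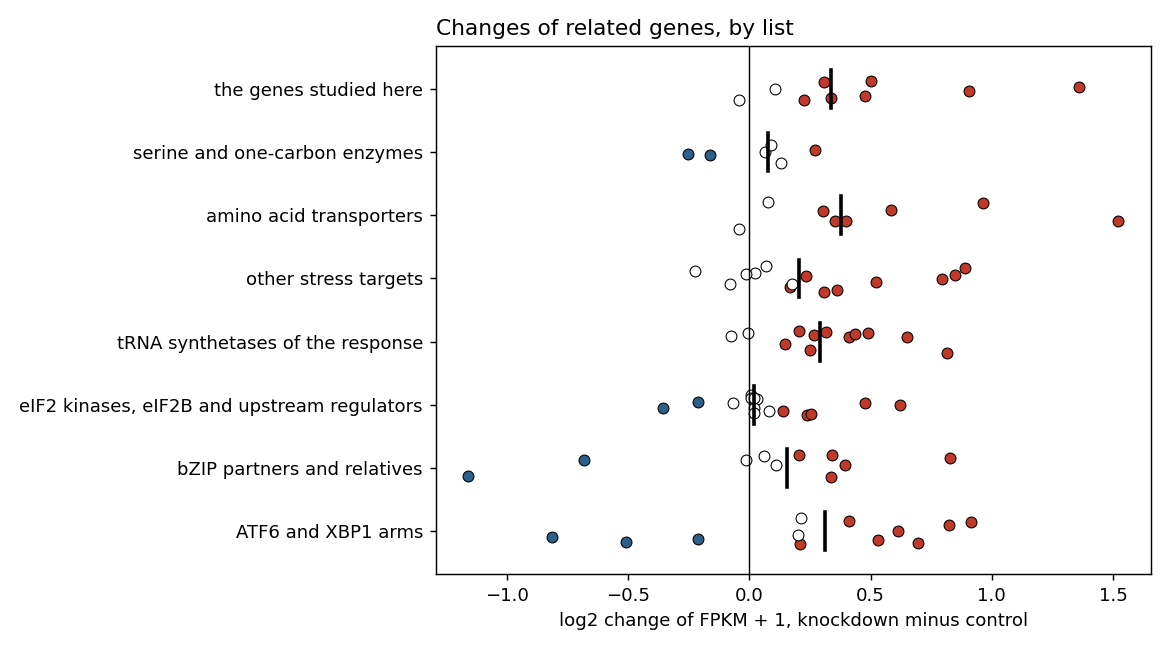
Log2 change of FPKM + 1, knockdown minus control (horizontal axis), of each tested gene in the lists on the vertical axis; red points were called higher and blue ones lower at an adjusted p of 0.05, white ones were not called, and the black line is the median of the list. Transporters and tRNA synthetases hold 0 lower genes, while the upstream regulators centre near 0, with a median of 0.02.

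The genes whose levels over the 6 libraries were most like the mean profile of the tested genes were SLC6A8, CIRBP and RBCK1, with a Pearson r of 0.999, 0.998 and 0.998. An r over 0.95 was reached by 377 of 11205 other tested genes, so the likeness is shared by many and is given as a description. SLC6A8, the creatine transporter, was at 60.4 ± 5.36 FPKM in knockdown libraries and 40.6 ± 1.19 FPKM in control libraries.

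The sum of FPKM was 234624 to 248082 in knockdown libraries and 271372 to 274709 in control libraries. Rescaling each library to a common sum moved the median change of all genes to 0.14 and gave ATF4 a change of 0.12 (adjusted p = 0.0377) and PHGDH a change of 0.27 (adjusted p = 0.00107). Relative to that median, ATF4 was at -0.02 and PHGDH at 0.13, while TRIB3 was at 1.38 and CHAC1 at 0.25. The called genes kept their direction under each setting tried.

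**Figure D5:**
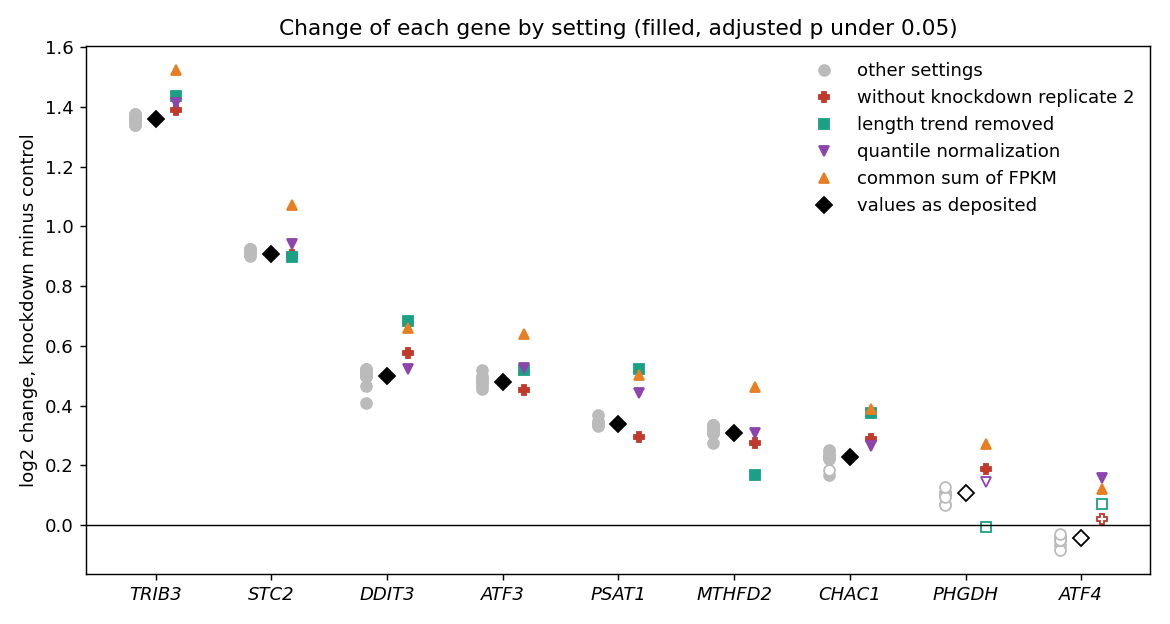
Log2 change, knockdown minus control (vertical axis), of the 9 genes tested under the values as deposited (black diamonds) and under each alternative setting (other symbols); filled symbols passed an adjusted p of 0.05. TRIB3 stays between 1.34 and 1.52, while ATF4 lies on both sides of 0, between -0.08 and 0.16.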

How the data were processed

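Per the labels' protocols, RNA was isolated with TRIzol and made into libraries with a TruSeq RNA kit. Groups came from the sample titles. The authors deposited FPKM values, with HISAT2 2.2.1 and GRCh38 named in the submitters' processing notes. How fragments were counted, on which annotation and lengths and with or without strand, is not given in the sources used here. Listed genes had a mean of at least 0.100 FPKM.

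Whole reads were recovered for all 12829 genes (tolerance 0.004 reads), and 85.7% of well-covered genes then had a length within 10% of GENCODE 29. A divisor common to all 6 libraries cannot be seen, so the reads and implied length of a gene may be too low. PSAT1 implied 1103 bases, against 2188 in GENCODE 29. The recovered reads entered voom, and the implied lengths entered the removal of the length trend. Reads are not independent molecules, so intervals from them cover counting error only. The test was that of limma (3.58.1, under R 4.3.3) on log2(FPKM + 1), with group as the factor, a mean-variance trend, a minimum mean of 0.5 FPKM and Benjamini-Hochberg adjustment over 11214 genes. On simulated libraries of 11213 genes the test recovered 95.5% of 67 genes with a 1.5-fold difference, with 16 false calls. It recovered 100% of 67 with a 2-fold one. Each simulated gene had the same spread beyond counting error, and few genes changed, unlike in these data. The figures therefore do not vouch for the calls here. CHAC1, MTHFD2, PSAT1, ATF3 and DDIT3 differed by less than 1.5-fold, a size that was not simulated. Exact permutation tests used scipy 1.17.1. Library numbers did not pair the groups, as given with the sensitivity of the results.

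The genes and lists were chosen with earlier results of these data known, and 1 gene of the serine and folate list, besides the 2 not analysed, is not reported here. Named were all 10 genes, the 4 largest called changes of each related list with any needed to account for a count of 5 or fewer, and the 3 genes most like the set; DDIT4, GDF15, LUM, PSPH, CEBPB, EIF2AK4 and HSPA5 were added after their values were seen. Alternatives were pseudocounts of 0.1 and 0.5, no filter, a minimum of 5 FPKM, a common sum, quantile normalization, removal of the length trend, a replicate block, no mean-variance trend, leaving out each library and, added after seeing the data, voom on recovered reads.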

Additional observations from a re-analysis of the deposited data

How the results depend on the processing

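The 7 genes called higher kept their direction under all 17 alternatives, and of 153 values for the 9 tested genes 145 kept direction and side of the threshold. ATF4 changed sign with a common sum (0.12), quantile normalization (0.16, adjusted p = 0.00692), the length trend removed (0.071) and without knockdown replicate 2 (0.019; -0.083 to 0.019 over the single libraries left out), and PHGDH with the length trend removed (-0.0073), while CHAC1 lost its call without control replicate 2. The cause was not tested. For the 35 related genes named by rule, 571 of 593 values kept direction and side of the threshold, 22 lost the call and 0 changed sign. With a common sum 4864 genes were higher and 1838 lower, against 3313 and 3121 as deposited, while 55 related genes were higher and 5 lower, against 42 and 9, and all 9 tested genes of the set were higher, against 7. ASNS had a log2 difference of 0.57 with a pseudocount of 0.1, against 0.20 with 1.

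Same-numbered libraries did not deviate together (correlations of deviations -0.067, -0.038 and 0.019 for replicates 1, 2 and 3, and 0 of 6 libraries correlated best with their own number). With the replicate block 7 of these genes were higher and 0 lower, with 3167 genes higher and 3024 lower overall. SHMT1 lost the call under the block (adjusted p = 0.0540). Tests that model counts directly were not run, since the table holds FPKM. With 3 libraries a group the exact test cannot go below p = 0.1, and at 13 to 47 reads per library the depth limits ASNS.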
